A study of Mus musculus with 12 samples.

Results

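Described here across 12 mouse tumors are 4 genes of the primary (azurophilic) granule of neutrophils: Elane (neutrophil elastase), Prtn3 (proteinase 3) and Ctsg (cathepsin G), which encode serine proteases, and Mpo (myeloperoxidase). They were chosen by their gene symbols, with their levels in these tumors already known, and are 4 of the 55401 genes in the expression table. Because their levels entered that choice, their values and counts of calls are given as a description, from which nothing is inferred.

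The tumors were orthotopic grafts of 4T1, a single mouse mammary carcinoma line, in young adult Balb/c mice. Each of 4 groups held 3 tumors and each tumor gave 1 library. The Control group received an isotype IgG1-Fc, IL10Fc received recombinant IL10-Fc, aCSF1R received an antibody to CSF1R, the receptor that macrophages depend on, and BF10 received a fusion protein in which human interleukin-10 is attached to such an antibody. Dosing began at a tumor volume of 100 mm3, with 2 doses a week. The number of doses was 6 in the sample labels and 4 in the series text and was not settled here. Whole tumor tissue was sequenced, so a higher share of the cells that express a gene and more RNA per cell cannot be told apart.

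Primary granule proteins are made at the promyelocyte stage of granulocyte formation, mostly in the bone marrow, and are stored for release when the mature neutrophil meets a target. The messenger RNA of these genes falls as the cell matures, while the secondary granule genes, such as Ltf and Camp, are transcribed at the next stage and genes such as S100a8 and Cxcr2 in later cells. Elastase, proteinase 3 and cathepsin G share a fold and are stored in active form after cathepsin C (Ctsc) has removed a short propeptide, and Mpo makes hypochlorous acid from hydrogen peroxide. Tumors of the 4T1 line are known for raising the number of neutrophils and their precursors in the host.

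The genes lie in 3 places of the mouse genome (build GRCm38, GENCODE vM21). Prtn3 (ENSMUSG00000057729) and Elane (ENSMUSG00000020125) are neighbors on the plus strand of chromosome 10, at chr10:79874476-79883174 and chr10:79886247-79888215. Mpo (ENSMUSG00000009350) lies at chr11:87793581-87804413 on the plus strand, and Ctsg (ENSMUSG00000040314) at chr14:56099881-56102574 on the minus strand. The main transcripts of the 3 proteases each have 5 exons and are 984 (Elane), 1025 (Prtn3) and 1002 (Ctsg) nucleotides long. The main Mpo transcript has 14 exons and 2750 nucleotides.

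Because the 4 genes rose together in 1 tumor, the bases just upstream of their transcripts are shown. The sequences come from the RefSeq promoter table (GRCm38.p6), are written 5′ to 3′ on the strand of the gene, and stop before the first base of the main transcript in either annotation, so they differ in length. Capitals mark the letters AGGAAGT, the core of the site bound by the myeloid factor PU.1 (Spi1) and other ETS factors.
Elane, chr10:79886062-79886246, plus strand: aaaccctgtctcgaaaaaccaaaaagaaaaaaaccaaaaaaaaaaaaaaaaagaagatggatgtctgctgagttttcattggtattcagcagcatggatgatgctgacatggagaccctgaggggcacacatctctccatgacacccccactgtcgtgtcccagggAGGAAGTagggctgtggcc
Prtn3, chr10:79879417-79879613, plus strand: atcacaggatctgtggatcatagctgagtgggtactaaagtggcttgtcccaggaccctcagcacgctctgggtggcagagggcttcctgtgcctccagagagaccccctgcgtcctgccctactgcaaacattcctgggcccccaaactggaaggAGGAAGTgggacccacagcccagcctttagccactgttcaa
Ctsg, chr14:56102575-56102824, minus strand: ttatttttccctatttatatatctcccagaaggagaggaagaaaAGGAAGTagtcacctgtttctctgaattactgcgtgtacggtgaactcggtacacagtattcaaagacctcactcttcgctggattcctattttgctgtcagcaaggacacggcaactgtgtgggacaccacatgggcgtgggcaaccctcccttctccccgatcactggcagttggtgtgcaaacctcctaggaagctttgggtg
Mpo, chr11:87793534-87793580, plus strand: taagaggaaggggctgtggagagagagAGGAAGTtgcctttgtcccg

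All 4 printed stretches held AGGAAGT once, on the strand of the gene. Between the match and the end of the stretch lay 12 bases in Elane, 13 in Mpo, 34 in Prtn3 and 199 in Ctsg. Over the 250 bases before the RefSeq start, with both strands searched, these letters were present in 4 of 4 windows of the genes and in 7.69% of all 32851 windows of that length. The letters were chosen after the windows had been read. The C/EBP letters TTGCNNAA were in 0 of 4 windows and 9.56% of all, the MYB letters AACNG in 4 of 4 and 74.2%, and the RUNX letters TGTGGT in 1 of 4 (Ctsg) and 14.0%. None of these matches overlapped an AGGAAGT match in the 4 windows. A match describes the sequence and says nothing of binding in these tumors.

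Before the levels, 1 library has to be named. In BF10 replicate 3, 40 genes stood at least 4-fold above the next highest library on the log2(TPM + 1) scale, against 0 to 35 genes in each of the other 11. TPM here means the deposited FPKM values brought to the same sum in every library. BF10 replicate 3 held the highest value of 19.3% of the 23032 tested genes, and the other libraries 2.55% to 22.0%. Its correlation with the libraries of its own set was 0.959 to 0.984, and the other libraries gave 0.959 to 0.990. The labels name no such sets, which are split here by the sum of the deposited FPKM values, which ran from 609695 to 921581, at 700000: Control replicates 4 and 7, IL10Fc replicate 7, BF10 replicate 6 and aCSF1R replicate 8 lie above it. Expression differed between the sets as well (Cdh1 was at 6.84 to 10.2 TPM in the higher-sum and 39.2 to 77.0 in the lower-sum libraries), so technical and biological differences between them cannot be told apart. The BF10 comparisons of the 4 genes are therefore given with and without replicate 3.

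Elane, the serine protease best known for degrading elastin and microbial proteins, was near 92.5 TPM in 1 tumor and below 4 in the rest. The Control tumors had 0.606, 0.635 and 2.23 TPM (replicates 4, 5 and 7). IL10Fc tumors had 0.314, 3.96 and 2.95 (replicates 2, 4 and 7), aCSF1R tumors 1.64, 0.426 and 3.95 (replicates 4, 6 and 8), and BF10 tumors 92.5, 3.82 and 2.64 (replicates 3, 6 and 7). Each pair among Control, IL10Fc and aCSF1R overlapped, and the other 2 BF10 tumors lay above all 3 Control tumors but inside the range of IL10Fc and aCSF1R. The mean was 1.16 ± 0.929 TPM (SD, n = 3) in Control, 2.41 ± 1.88 in IL10Fc, 2.01 ± 1.79 in aCSF1R and 33.0 ± 51.5 in BF10, where the SD exceeded the mean. Without replicate 3 the BF10 mean was 3.23 ± 0.837 (n = 2).

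Mpo, the heme enzyme that gives neutrophil-rich tissue its green color, showed the same tumor on top. Its levels were 0.482, 2.11 and 3.76 TPM in Control, 1.30, 8.07 and 3.64 in IL10Fc, 2.72, 0.951 and 2.99 in aCSF1R and 136, 2.79 and 3.60 in BF10, in the same replicate order as for Elane. The second highest tumor was IL10Fc replicate 4, and the other 2 BF10 tumors fell inside the Control range. The mean was 2.12 ± 1.64 TPM in Control, 4.34 ± 3.43 in IL10Fc, 2.22 ± 1.11 in aCSF1R and 47.4 ± 76.5 in BF10 (SD, n = 3 each), and 3.19 ± 0.577 in BF10 without replicate 3.

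Prtn3, a protease that cleaves many of the same substrates as elastase, had the highest floor of the 4 genes. Control tumors had 4.88, 7.81 and 13.2 TPM, IL10Fc tumors 7.57, 11.8 and 7.51, aCSF1R tumors 8.67, 5.81 and 10.4 and BF10 tumors 166, 11.1 and 5.37. Outside BF10 replicate 3 the 4 groups overlapped, and the highest of the 11 tumors was Control replicate 7. The group means without that library lay within 8.24 ± 4.06 (BF10, n = 2) and 8.95 ± 2.44 TPM (IL10Fc, n = 3). Control and aCSF1R stood between these, at 8.62 ± 4.21 and 8.30 ± 2.34, and BF10 with replicate 3 at 60.7 ± 90.9.

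Ctsg, which encodes a protease with chymotrypsin-like activity that some mast cells also make, reached 71.2 TPM in BF10 replicate 3. The next highest tumor was aCSF1R replicate 8 with 8.58 TPM. Control tumors had 1.86, 3.49 and 5.77 TPM, IL10Fc tumors 0.550, 5.21 and 4.44, the other 2 aCSF1R tumors 1.71 and 1.21 (replicates 4 and 6), and the other 2 BF10 tumors 4.44 and 2.83 (replicates 6 and 7). Here, too, all groups overlapped without BF10 replicate 3. Means were 3.71 ± 1.96 TPM in Control, 3.40 ± 2.50 in IL10Fc, 3.83 ± 4.12 in aCSF1R and 26.2 ± 39.0 in BF10, or 3.63 ± 1.14 in BF10 without that tumor.

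**Figure D1:**
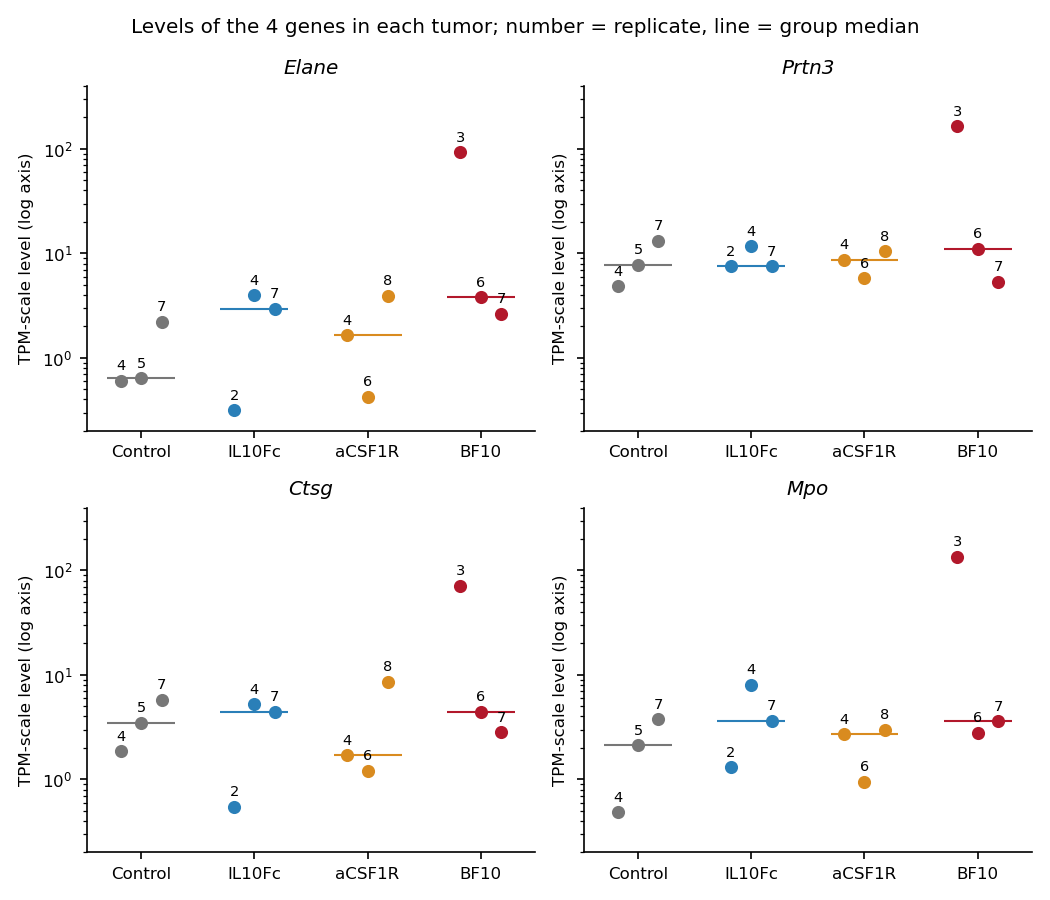
TPM-scale level of each of the 4 genes (log axis) in every tumor, by group, with the replicate number above each point and the group median as a line. BF10 replicate 3 lies at 71.2 to 166 TPM, and every other tumor lies at 13.2 TPM or below.

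The distance of BF10 replicate 3 from the second highest tumor was 23.3-fold for Elane, 16.8-fold for Mpo, 12.6-fold for Prtn3 and 8.29-fold for Ctsg. Against the median of the 11 other tumors it was 41.5-fold, 48.7-fold, 21.2-fold and 20.4-fold. Among the 23032 tested genes ordered by that gap on the log2(TPM + 1) scale, Elane was number 5, Mpo 6, Prtn3 9 and Ctsg 13. The first 4 places were taken by Fcnb (ficolin B, a marker of immature granulocytes, named after its value was seen), Ngp (neutrophilic granule protein), Camp (the cathelicidin precursor) and Ltf (lactoferrin).

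The depth behind these values can be given only roughly, since FPKM carry no counts. The authors' mean counts per gene imply 25.9 to 35.0 counts per FPKM unit for Elane, 57.8 to 65.8 for Mpo, 22.6 to 26.0 for Prtn3 and 25.7 to 32.5 for Ctsg. The lowest deposited values, 0.20 FPKM for Elane and 0.35 for Ctsg, thus stand for about 5.19 and 9.01 counts, and differences among the low tumors carry a large counting error for these 2 genes. The lowest values of Mpo and Prtn3 stand for about 24.9 and 78.3 counts.

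Differences between groups were taken on the log2(TPM + 1) scale from a limma model with 1 mean per group. For BF10 minus Control they were 2.53 ± 1.07 (SE) for Elane, 2.25 ± 1.16 for Mpo, 1.38 ± 0.94 for Prtn3 and 1.37 ± 1.03 for Ctsg. Without BF10 replicate 3 the same differences were 1.04 ± 0.66, 0.58 ± 0.65, -0.04 ± 0.47 and 0.04 ± 0.76. Leaving out the single tumor removed more of each difference than it left. BF10 minus IL10Fc went from 2.00 ± 1.07 to 0.50 ± 0.66 for Elane, from 1.54 ± 1.16 to -0.14 ± 0.65 for Mpo, from 1.26 ± 0.94 to -0.15 ± 0.47 for Prtn3 and from 1.61 ± 1.03 to 0.29 ± 0.76 for Ctsg.

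Against aCSF1R, the BF10 difference went from 2.15 ± 1.07 to 0.66 ± 0.66 for Elane and from 2.12 ± 1.16 to 0.44 ± 0.65 for Mpo when replicate 3 was left out. For Prtn3 it went from 1.36 ± 0.94 to -0.05 ± 0.47 and for Ctsg from 1.57 ± 1.03 to 0.24 ± 0.76. Within these sets, BF10 minus Control for Elane was 3.50 among the lower-sum libraries, which include BF10 replicate 3 (2 BF10 tumors, 1 Control), and 1.08 among the higher-sum libraries (1 BF10 tumor, 2 Control). The same pair of values was 3.01 and 0.51 for Mpo, 1.89 and 0.41 for Prtn3 and 1.89 and 0.31 for Ctsg, with no error since an arm held 1 tumor.

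**Figure D2:**
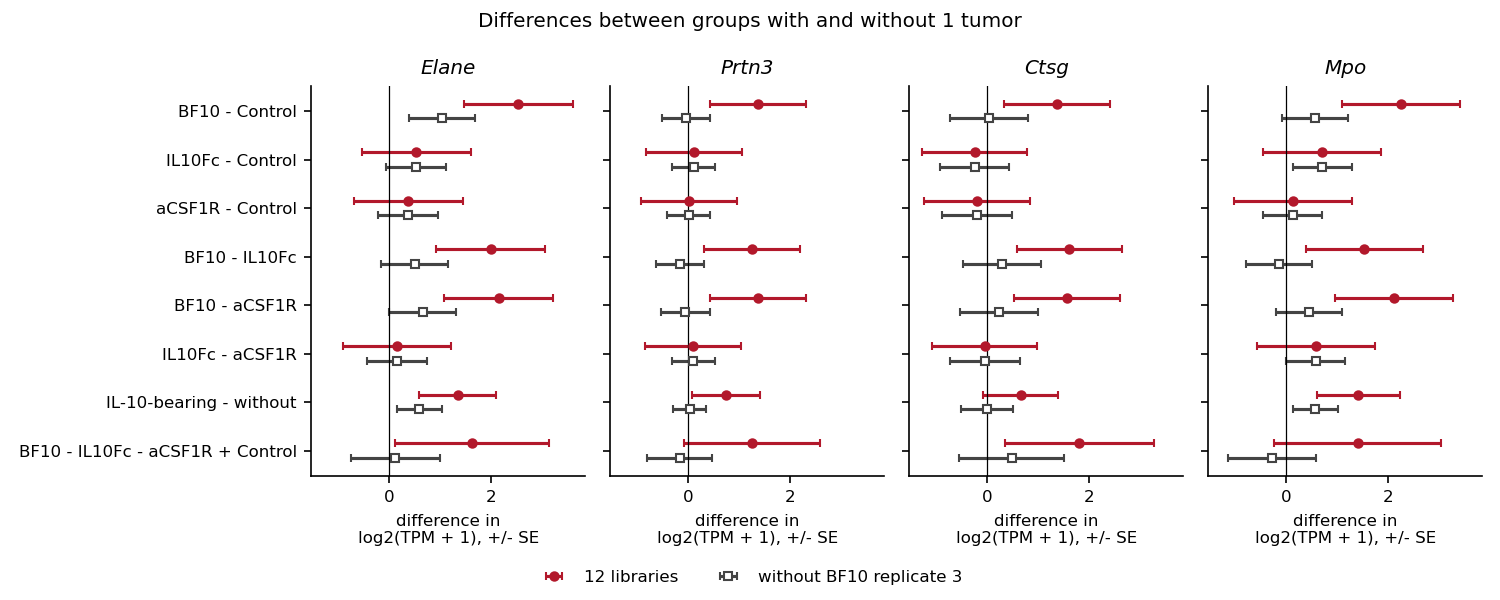
Differences between groups in log2(TPM + 1) for each gene, ± SE of the limma fit, for 8 comparisons, from 12 libraries (filled circles) and without BF10 replicate 3 (open squares). The BF10 minus Control value of Elane moves from 2.53 to 1.04 and that of Prtn3 from 1.38 to -0.04, while IL10Fc minus Control and aCSF1R minus Control keep their values.

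For the 2 single agents against Control the differences were small beside the SE from 12 tumors, which includes the spread from BF10 replicate 3. IL10Fc minus Control was 0.53 ± 1.07 for Elane, 0.71 ± 1.16 for Mpo (SE 0.58 without BF10 replicate 3), 0.11 ± 0.94 for Prtn3 and -0.24 ± 1.03 for Ctsg. aCSF1R minus Control was 0.38 ± 1.07, 0.13 ± 1.16, 0.01 ± 0.94 and -0.20 ± 1.03. IL10Fc minus aCSF1R lay between -0.04 (Ctsg) and 0.58 (Mpo). The 6 tumors that received interleukin-10 in either form minus the 6 that did not gave 1.34 ± 0.75 for Elane, 1.42 ± 0.82 for Mpo, 0.74 ± 0.67 for Prtn3 and 0.66 ± 0.73 for Ctsg. Without BF10 replicate 3 these were 0.60 ± 0.44, 0.58 ± 0.43, 0.03 ± 0.32 and 0.00 ± 0.51. The non-additive difference (BF10 minus IL10Fc minus aCSF1R plus Control) was 1.25 to 1.81 over the 4 genes with every tumor and -0.27 to 0.49 without that tumor.

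By limma's threshold, a Benjamini-Hochberg adjusted p below 0.05 and at least 1.5-fold, 0 of the 4 genes were called in each of the 8 comparisons, with or without BF10 replicate 3. Over all 23032 tested genes the share called was 0.00434% for BF10 minus Control and for BF10 minus IL10Fc, 0.00868% for IL10Fc minus Control, 0.356% for aCSF1R minus Control, 0.447% for BF10 minus aCSF1R, 0.317% for IL10Fc minus aCSF1R, 0.0347% for the interleukin-10 comparison and 0.148% for the non-additive one. Without BF10 replicate 3 the shares were 0% for BF10 minus Control (0 genes called by limma, 281 at an unadjusted p under 0.05), 0.00434% for BF10 minus IL10Fc, 0.178% for BF10 minus aCSF1R, 0.00868% for the interleukin-10 comparison and 0.0564% for the non-additive one. The median of the 4 genes in BF10 minus Control was 1.81, beside 0.16 for all tested genes, and it was 0.31 without that tumor. The median of all tested genes was itself off 0 by 0.13 to 0.17 in the 3 comparisons with Control, by 0.11 in the interleukin-10 comparison and by -0.15 in the non-additive one, and small differences of the 4 genes are to be read relative to it.

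The spread among tumors within a group was wide for these genes. The residual SD on the log2 scale was 1.49 for Elane, 1.62 for Mpo, 1.31 for Prtn3 and 1.44 for Ctsg, which placed them at 176, 104, 403 and 212 among 23032 genes ordered from the widest. Without BF10 replicate 3 it was 0.80, 0.76, 0.50 and 0.92.

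The make-up of the 4-gene sum also differed between tumors. The sum was 465 TPM in BF10 replicate 3 and 7.83 to 29.0 TPM in the other 11, with a median of 14.7. Prtn3 held 37.2% to 77.7% of the sum in the 11 tumors and 35.6% in BF10 replicate 3. Mpo held 29.2% there against 6.16% to 27.8%, and Elane 19.9% against 3.23% to 18.3%. Ctsg held 15.3%, inside its range of 5.65% to 33.1%. Thus BF10 replicate 3 had the lowest Prtn3 share and the highest Mpo and Elane shares of the 12. The Prtn3 to Mpo ratio was 1.22 there and 1.46 to 10.1 elsewhere, highest in Control replicate 4, where Mpo was at 0.482 TPM.

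**Figure D3:**
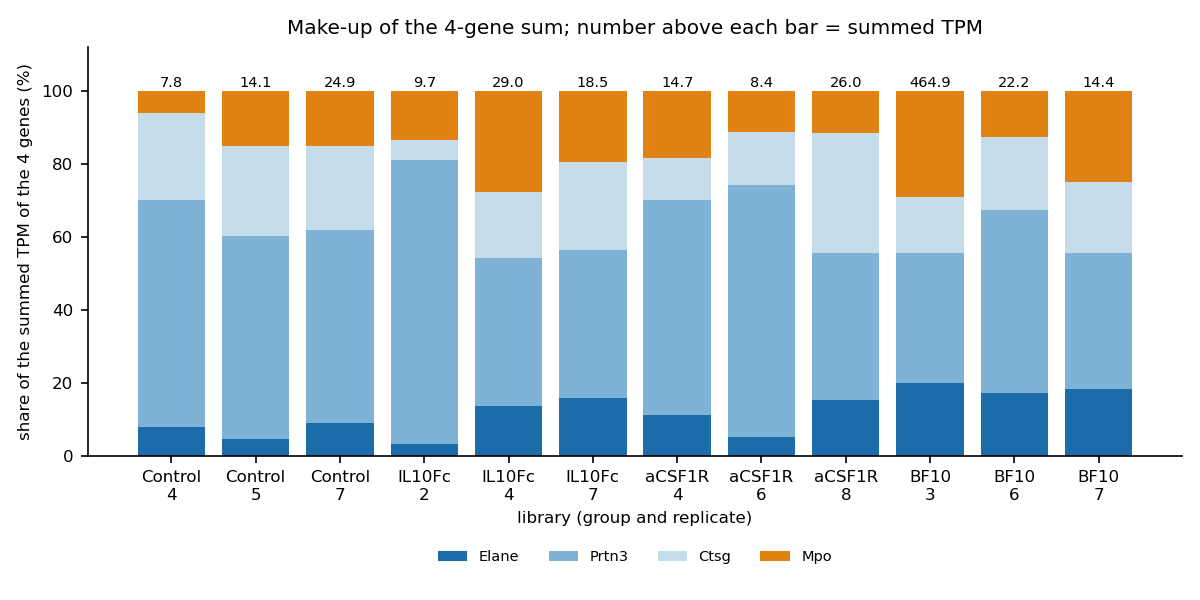
Share of each gene in the summed TPM of the 4 genes (percent, bars stacked to 100%) in every tumor, with the summed TPM above each bar. Prtn3 takes 35.6% of 465 TPM in BF10 replicate 3 and 37.2% to 77.7% of 7.83 to 29.0 TPM in the 11 other tumors.

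Across the 12 tumors, which share their tissue but not their library set, the genes followed each other with Pearson's r of 0.911 (Prtn3 and Ctsg) to 0.966 (Elane and Mpo). Without BF10 replicate 3 the values were 0.599 to 0.822, with Elane and Ctsg (0.822) and Elane and Mpo (0.814) the closest pairs and Elane and Prtn3 (0.599) the least close. Spearman's rho over those 11 tumors was 0.545 to 0.827. No p was attached, because the genes were picked as a group.

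The 3 genes whose pattern was most like each of them over the 12 tumors, out of 15503 ranked, were mostly granulocyte genes. For Elane they were Chil3 (r = 0.974), Camp (0.971) and Mpo (0.966). Ngp (0.971), Ly6g (0.970), the neutrophil surface antigen, and Ltf (0.966) came first for Mpo. Prtn3 was closest to Ltf (0.978), Ceacam10 (0.966) and Cebpe (0.964), the factor required for secondary granule formation, and Ctsg to Chil3 (0.966), Camp (0.964) and the kinase gene Stk26 (0.963). These values rest on the same tumor in part: without BF10 replicate 3, Chil3 and Camp stayed at 0.868 and 0.858 with Elane and at 0.873 and 0.867 with Ctsg, while Ceacam10 and Cebpe fell to 0.700 and 0.614 with Prtn3. Ranked over the 11 tumors alone, a choice made after seeing the data, the order changed. Elane was closest to Atp5pb-ps (0.924), Akr1c18 (0.877) and Chil3 (0.868), Mpo to Ngp (0.834), Gm10179 (0.819) and Elane (0.814), and Ctsg to Gm47162 (0.942), Stk26 (0.890) and Cebpe (0.886), which are not all granulocyte genes. None of the first 3 genes for Prtn3 was among its first 3 over 12 tumors.

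The lists of partner genes were read for what the 4 genes themselves did not show. Of the primary granule partners, Prss57, which encodes a further protease of this granule, followed the pattern at a low level (4.80 TPM in BF10 replicate 3, 0 to 0.499 in the others; named after its values were seen). Bpi, a bactericidal protein, was at or near 0 in every tumor, listed at 0 in 11 of 12, and did not pass the filter. Srgn, the proteoglycan that packs the granule proteins, was at 398 TPM in BF10 replicate 3 and 103 to 326 elsewhere. Cd63, a granule membrane protein found in many cells, was not highest there (752 TPM, others 338 to 820).

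Ctsc, the protease that activates all 3 of the serine proteases, behaved unlike them. It was at 227, 264 and 195 TPM in Control, 331, 327 and 238 in IL10Fc, 77.0, 44.5 and 20.9 in aCSF1R and 397, 286 and 413 in BF10, so aCSF1R did not overlap any other group. The aCSF1R minus Control difference was -2.42 ± 0.39 (SE; limma adjusted p = 0.0226), BF10 minus aCSF1R was 3.08 ± 0.39 (limma adjusted p = 0.00537; 3.01 without BF10 replicate 3, limma adjusted p = 0.0406) and IL10Fc minus aCSF1R was 2.80 ± 0.39 (limma adjusted p = 0.0129). The first of these lost its call without Control replicate 4 (Ctsc difference -2.42), Control replicate 5 (-2.31), Control replicate 7 (-2.53) or aCSF1R replicate 6 (-2.46). The third lost it without IL10Fc replicate 2 (2.71), IL10Fc replicate 4 (2.72) or aCSF1R replicate 6 (2.84). Lyz2, the lysozyme of macrophages and neutrophils, had 2309, 1812 and 3259 TPM in Control, 1332, 1949 and 1605 in IL10Fc, 254, 181 and 174 in aCSF1R and 2517, 1934 and 1105 in BF10. The aCSF1R minus Control difference of Lyz2 was -3.57 ± 0.33 (limma adjusted p = 0.000828), and its level was higher by 3.12 ± 0.33 on the log2 scale in BF10 than in aCSF1R (limma adjusted p = 0.00242; 2.86 without BF10 replicate 3, limma adjusted p = 0.0148). Its IL10Fc minus aCSF1R difference was 3.00 ± 0.33 (limma adjusted p = 0.0036).

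Ctsc and Lyz2 are also made by macrophages, and most listed markers of those cells were lower in aCSF1R as well. Ly6c2 overlapped Control, and Csf1r did so only across the library sets. Ly6c2 was at 13.2, 15.3 and 34.0 TPM in aCSF1R and 27.4, 9.51 and 37.6 in Control. Csf1r was at 20.6 TPM in aCSF1R replicate 4 and 18.8 in Control replicate 4. The summed level of the 7 monocyte and macrophage markers was 80.6 to 149 TPM in aCSF1R, 852 to 1092 in Control, 677 to 817 in IL10Fc and 792 to 903 in BF10. Of these 7, C1qa, Mrc1 and Ccr2 were called lower in aCSF1R than in Control. C1qa, Ccr2, Mrc1 and Adgre1 were called higher both in BF10 and in IL10Fc than in aCSF1R. For C1qa, a complement subunit made by macrophages, the aCSF1R minus Control difference was -3.98 ± 0.37 (limma adjusted p = 0.000828). Adgre1 lost its BF10 minus aCSF1R call without BF10 replicate 3 (2.32) or aCSF1R replicate 6 (2.61). Leaving out any of 10 single tumors ended the IL10Fc minus aCSF1R call of Adgre1, and any of 3 ended that of Ccr2. No marker of the list was at 0. The part of these cells in the Ctsc and Lyz2 values was not tested. The 4 granule genes showed no such step: their median aCSF1R minus Control difference was 0.07, beside 0.13 for all tested genes.

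Of the listed serine protease inhibitors, the most abundant were Serpinb6a (386 TPM on average over the 12 tumors), Slpi (153) and Serpina3g (101). Serpinb1b, Serpinb1c and Serpina1a were at 0.152, 0.0532 and 1.92. In BF10 replicate 3 Serpinb6a was at 261 TPM, the lowest of the 12, and Slpi at 107, while Serpina3g was at 186 TPM, close to the next tumor (182). Serpinb1a, the elastase inhibitor stored in neutrophils, was at 72.0 TPM in that tumor and 5.08 to 16.1 elsewhere, a value singled out after it was seen. In the 8 comparisons limma called 0 of the 8 tested inhibitor genes, and at an unadjusted p under 0.05 between 0 and 2 of them. Between 218 and 1026 of all 23032 tested genes had such a p. In BF10 minus Control the list had a median of 0.03, beside 0.16 for all tested genes, and of -0.12 without replicate 3, beside 0.10.

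The granulocyte genes placed the 4 genes among other stages. In BF10 replicate 3 the highest value of the 12 tumors was found for 6 of 11 progenitor genes, 8 of 8 secondary granule genes and 10 of 12 mature neutrophil genes, beside 19.3% of all tested genes. The median of BF10 replicate 3 minus the median of the other tumors was 1.31, 4.34 and 3.16 on the log2 scale for the 3 lists, against 0.08 for all tested genes. Among the progenitor genes, Cebpe was at 17.3 TPM (others 0.344 to 1.60), and Gfi1 and Ms4a3, named after their values were seen, were at 4.24 (others 0.195 to 0.603) and 35.9 TPM (0.440 to 8.77). Of the genes of earlier progenitors, Myb was highest there at 6.71 TPM (others 0.699 to 3.44), whereas Kit was at 4.76 TPM (others 0.651 to 8.67), Cd34 at 42.6 (8.18 to 45.5) and Flt3 at 0.735 (0.141 to 1.01). Spi1, the gene of PU.1, was at 99.7 TPM there, 39.3 and 46.0 in the other BF10 tumors and 13.9, 8.96 and 4.47 in aCSF1R. Its BF10 minus aCSF1R difference was 2.62 ± 0.44 (limma adjusted p = 0.0270), and 2.22 ± 0.44 without replicate 3, where it was not called. Leaving out any of 8 single tumors ended that call, with the difference at 2.22 to 2.77.

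Among secondary granule genes, Lcn2 (lipocalin 2) was at 691 TPM in BF10 replicate 3 and up to 650 elsewhere, with tumor cells as a known further source. Ngp reached 1573 TPM (others 7.00 to 69.0), Ltf 670 (9.17 to 33.0) and Camp 531 (1.72 to 23.8). Of the mature neutrophil genes, S100a9 and S100a8, the subunits of calprotectin, were at 9368 and 6522 TPM (others 248 to 1906 and 143 to 1363), and Mmp9 at 704 (9.20 to 397). The 2 exceptions were Il1r2 and Padi4, the latter at 143 TPM with 42.8 to 349 elsewhere. Among the lower-sum libraries alone, BF10 replicate 3 had the highest Il1r2 (43.0 TPM, others 13.3 to 30.8) and the lowest Padi4 (others 163 to 349). Of the 40 genes that stood at least 4-fold above the next tumor there, 4 were the granule genes, 7 belonged to the secondary granule list, 8 to the mature list, 2 to the progenitor list, 1 to the inhibitors and 18 to no list.

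Of the 31 tested genes of the 3 granulocyte lists, limma called 0 in BF10 minus Control and 1 had an unadjusted p under 0.05. Of all 23032 tested genes, 477 had an unadjusted p under 0.05 there. The list medians in BF10 minus Control were 0.56 (progenitor), 1.71 (secondary granule) and 1.20 (mature), beside 0.16 for all tested genes, and 0.02, 0.20 and 0.04 without replicate 3, beside 0.10. Over the 8 comparisons with every tumor the 31 genes gave 1 call, that of Spi1.

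**Figure D4:**
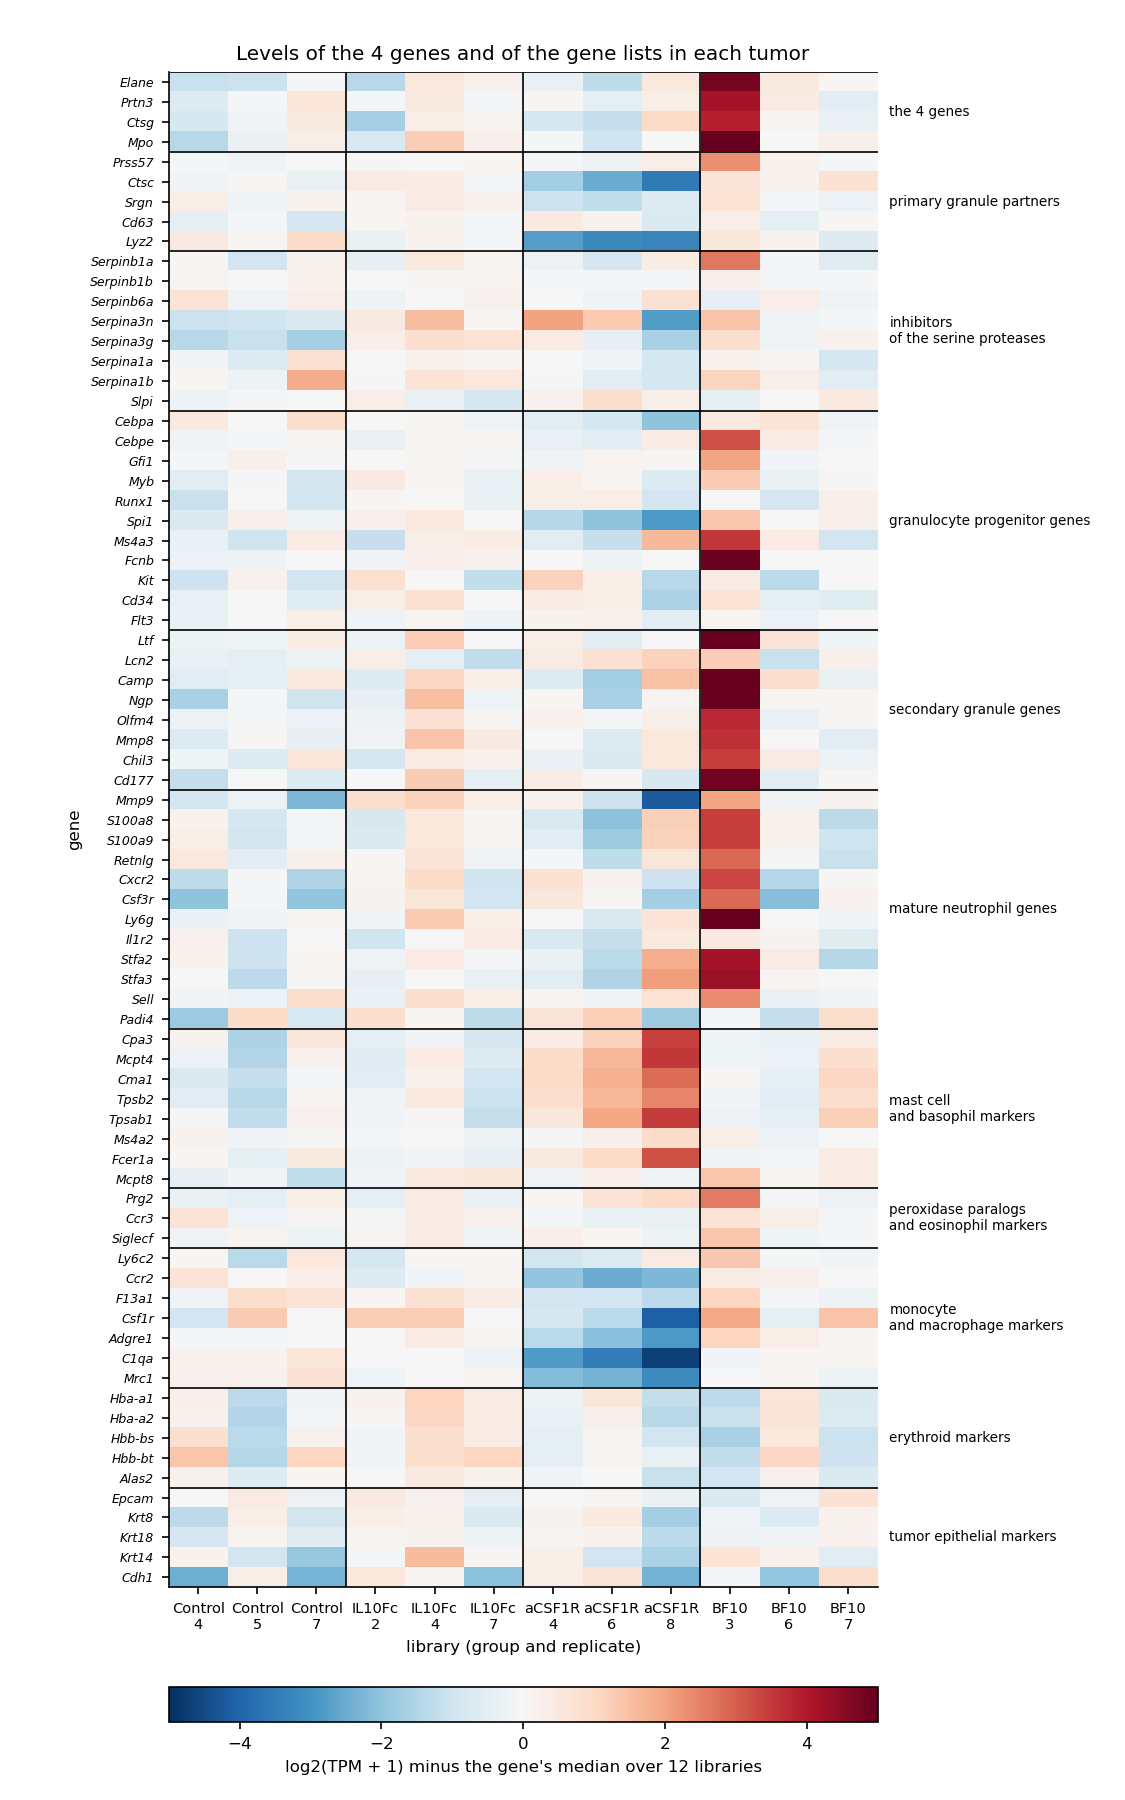
Level of the 4 genes and of the tested genes of the lists with a mean of at least 0.1 TPM in every tumor, as log2(TPM + 1) minus the median of the gene over 12 libraries, with the color held constant beyond either end of the scale. The 4 genes, most secondary granule genes (Lcn2 less so) and most mature neutrophil genes are highest by far in BF10 replicate 3, and most macrophage markers are low in the 3 aCSF1R tumors.

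Marker lists of other cells were read beside the same tumor. The 8 mast cell and basophil markers summed to 60.8 TPM in BF10 replicate 3 and 20.6 to 364 in the others. Tpsab1, a mast cell tryptase, was at 8.71 TPM there and 4.08 to 132 elsewhere, and only Mcpt8, a basophil protease gene, was highest in it (31.8 TPM, others 4.32 to 17.5). The sum was highest, 364 TPM, in aCSF1R replicate 8, the tumor with the second highest Ctsg, Camp, S100a8, S100a9 and Ms4a3. The second highest mast cell list mean was in aCSF1R replicate 6, where Ctsg was at 1.21 TPM, number 11 of the 12. The range was 68.1 to 364 in aCSF1R, 20.6 to 44.7 in Control, 31.8 to 56.0 in IL10Fc and 36.0 to 83.2 in BF10. In aCSF1R minus Control limma called 0 of 8 of these genes, and 6 had an unadjusted p under 0.05, as did 843 of the 23032 tested genes. No marker was at 0, and the part of mast cells in the Ctsg value of that tumor was not tested.

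Among the peroxidase relatives of Mpo, Lpo was listed at 0 in 10 of the 12 tumors, and Epx, the eosinophil peroxidase, was at 0.673 TPM in BF10 replicate 3 and at 0 to 0.197 elsewhere. The eosinophil genes Prg2 and Siglecf were also highest in that tumor, at 10.6 and 2.66 TPM (others 0.413 to 2.81 and 0.155 to 0.771), while Ccr3 at 1.85 was close to the next tumor (1.82). Limma called 0 of the 3 tested genes of this list in each comparison, with 0 at an unadjusted p under 0.05. Of all 23032 tested genes, 218 to 1026 had such a p, depending on the comparison. The 6 erythroid markers in the table summed to 249 TPM in BF10 replicate 3, near the lowest of the range of the others (246 to 1237), and Hbb-bs, an adult globin gene, was at 97.6 TPM, the lowest of the 12. The 7 monocyte and macrophage markers summed to 903 TPM there (others 80.6 to 1092). Of these, 4 (Csf1r, Ly6c2, F13a1 and Adgre1) were highest of the 12 in that tumor, and C1qa, Mrc1 and Ccr2 were not. For that list the median of BF10 replicate 3 minus the median of the other tumors was 1.07 on the log2 scale. For all tested genes it was 0.08. The 5 epithelial markers summed to 1597 TPM in BF10 replicate 3 (others 670 to 2289). Krt18 at 791 and Krt8 at 690 TPM lay inside the range of all others, and Epcam at 31.9 was the lowest of the 12. Among the lower-sum libraries alone, Krt18 and Krt8 were lowest in BF10 replicate 3 (others 1026 to 1079 and 897 to 1090 TPM). Cdh1 at 39.2 TPM was also the lowest of that set (others 44.2 to 77.0), while Krt14 at 45.1 was not (others 13.7 to 86.4). In BF10 minus Control limma called 0 of the erythroid and 0 of the epithelial markers, and 0 had an unadjusted p under 0.05, beside 477 of all 23032 tested genes. The list medians were -0.23 and 0.42, and -0.06 and 0.48 without replicate 3.

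**Figure D5:**
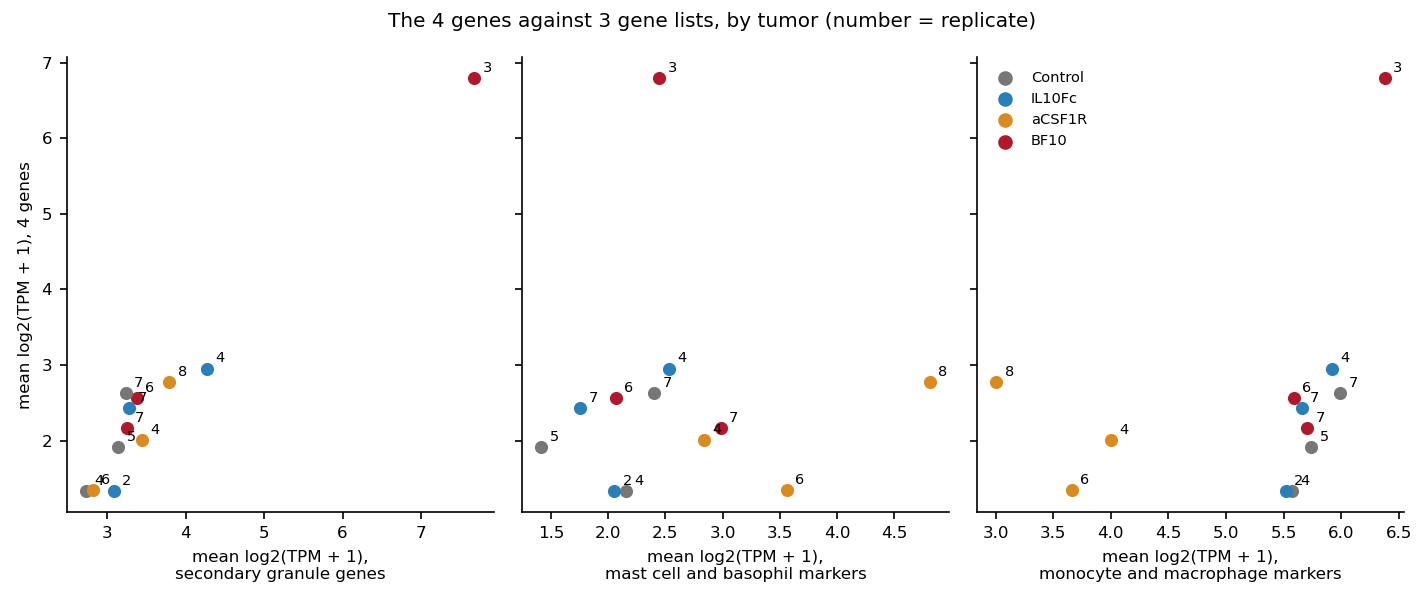
Mean log2(TPM + 1) of the 4 genes (vertical axis) against the mean log2(TPM + 1) of the secondary granule genes, the mast cell and basophil markers and the monocyte and macrophage markers (horizontal axes), 1 point per tumor with its replicate number and the group as color. BF10 replicate 3 stands apart on the secondary granule axis lies inside the range of the others on the mast cell axis and is highest on the macrophage axis, and the 3 aCSF1R tumors lie lowest on the macrophage axis without being lowest on the vertical one.

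The 4 genes were also set beside the mean of each list. The correlation of the mean log2 level of the 4 genes with the list mean was r = 0.976 (rho = 0.881) over 12 tumors, 0.830 (rho = 0.845) over 11 and 0.822 over 10 (without IL10Fc replicate 4 as well) for the secondary granule list. For the progenitor list it was 0.852 over 12, 0.0536 over 11 and 0.511 over 10 (without aCSF1R replicate 8 as well), so each value rested on single tumors. For the mature neutrophil list it was 0.941 over 12, 0.578 over 11 and 0.400 over 10 (without IL10Fc replicate 4 as well). For the macrophage list it was 0.351 over 12, 0.0970 over 11 and 0.498 (rho = 0.745) over the 10 tumors other than aCSF1R replicates 6 and 8, and for the mast cell list it was 0.0282 over 12 and 0.187 over 11. The peroxidase and eosinophil list gave 0.914 over 12 and 0.350 over 11, the inhibitors 0.589 and 0.173 and the primary granule partners 0.493 and 0.0892. The erythroid list gave -0.393 and 0.0588, and the epithelial list -0.0356 and -0.302. The list levels and the 4 genes come from the same libraries, and 10 lists were compared.

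The neighbors of the 4 genes on the chromosome were read to see whether the rise reached them. Elane and Prtn3 lie 3138 bp apart. Beyond Elane, the pseudogene Gm19810, 451 bp away, was at 0.266 TPM in BF10 replicate 3 and 0 to 1.18 in the others. Plppr3, a brain-enriched membrane protein gene 4709 bp from Prtn3, was at 8.27 TPM there and 1.44 to 6.39 elsewhere. On chromosome 11, Lpo lies 2016 bp from Mpo and was at 0.0469 TPM, while Tspoap1, 7856 bp away on the other side, was at 2.88 TPM (others 0.179 to 1.10). Near Ctsg, the mast cell and granzyme genes gave Mcpt8, 14386 bp away, which was highest in that tumor (31.8 TPM), and Gzme, 15045 bp away, which was not (22.0 TPM, others 9.88 to 73.0). The first part of Mpo overlaps a RefSeq long noncoding RNA, Gm34064, which was not analysed here.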

How the data were processed

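RNA was measured by bulk sequencing of 12 tumors, 3 per group, and the groups and replicate numbers were taken from the sample labels. Per the study's methods the authors made stranded poly(A) libraries and aligned them to mm10 (GRCm38.101), and the submitters' processing notes name STAR 2.7.5a, RSEM 1.3.3 and DESeq2 1.28.0. The authors deposited FPKM values with 2 decimals, so the depth per library is unknown here and no count model was run. The 4 tables of the authors' own DESeq2 comparisons hold fold changes and p-values, which were not used. Only the deposited score of mean normalized counts per gene was used, as the authors' mean, to set counts per FPKM. All FPKM columns were matched to samples by name (0 unmatched).

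FPKM values were rescaled to a sum of 1000000 per library (TPM scale). Genes with at least 0.1 in at least 3 of 12 libraries were tested on log2(TPM + 1), which understates changes of low genes, with limma 3.58.1 (1 mean per group, eBayes with trend) in R 4.3.3. All 4 genes passed this filter and also one at 1 TPM. A call needed a Benjamini-Hochberg adjusted p below 0.05 and 1.5-fold. Nothing says that tumors came from separate experiments, so p-values measure the spread between these tumors. The code was tested on simulated data.

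The 4 genes, the gene lists and the tests were chosen with earlier results of these data known. Named genes were the 4 genes, up to 3 called genes of each list or else its 3 most abundant, the 3 most similar genes of each, and chromosomal neighbors. Other names were chosen after their values were seen, as stated there, or fill out a list. Gene positions came from GENCODE vM21, neighbors and promoter windows from RefSeq tables (GRCm38.p6), the build of the authors' files. Protein sequences were not used here. The values within library sets of BF10 minus Control and the similarity over 11 tumors were added after seeing the data. Alternatives are listed in the closing section. Some list genes are not reported here.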

Additional observations from a re-analysis of the deposited data

Results flagged for a closer look

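Groups of 3 tumors were not tested for outliers, and BF10 replicate 3 was described by its values in the report. Of the genes on the lists, 4 had a non-additive difference (BF10 minus IL10Fc minus aCSF1R plus Control) past the limma threshold, and none of these was among the granule genes themselves. For Lyz2 this difference was 3.69 ± 0.47 on the log2 scale (adjusted p = 0.0147). BF10 is a fusion protein and no group received the antibody together with IL10-Fc, so an effect of adding interleukin-10 to the antibody was not tested. The value was 4.08 ± 0.53 for C1qa (adjusted p = 0.0152), 3.00 ± 0.38 for Ccr2 (adjusted p = 0.0147) and 2.91 ± 0.42 for Mrc1 (adjusted p = 0.0344). Without BF10 replicate 3 Lyz2 kept its call (3.43, adjusted p = 0.0457), while C1qa (4.15, adjusted p = 0.0572), Ccr2 (2.91, adjusted p = 0.0620) and Mrc1 (2.89, adjusted p = 0.122) did not. Taking out 1 tumor at a time, the call was lost in 6 of 12 cases for Lyz2 (3.47 to 3.72), 7 for Ccr2 (2.79 to 3.05), 9 for C1qa (3.95 to 4.18) and 9 for Mrc1 (2.74 to 3.01), with the same sign throughout.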

How the results depend on the processing

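For the mean log2 difference of the 4 genes, pseudocount, scaling, both filters and a term for the library set moved the value by less than the spread between tumors in all 8 comparisons. That spread was a pooled SD of 1.43 and includes BF10 replicate 3. It exceeds the differences among Control, IL10Fc and aCSF1R, so a smaller move could still turn their signs. Leaving out 1 tumor gave 0.40 (without BF10 replicate 3) to 2.72 for BF10 minus Control, 0.12 to 2.44 for BF10 minus IL10Fc and 0.32 to 2.64 for BF10 minus aCSF1R, against 1.88, 1.60 and 1.80 with every tumor. It gave 0.30 to 1.46 for the interleukin-10 comparison and 0.0436 to 2.36 for the non-additive one, with the lowest again without BF10 replicate 3. IL10Fc minus Control ran from -0.08 to 0.73, aCSF1R minus Control from -0.28 to 0.43 and IL10Fc minus aCSF1R from -0.16 to 0.65, so their signs depended on single tumors. They also turned with scaling: median-of-ratios scaling gave -0.02, -0.01 and -0.01 against 0.28, 0.08 and 0.20, and aCSF1R minus Control was -0.01 without rescaling. FPKM without counts do not give the depth, which limits the values of the low tumors.

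The number of genes called over the whole table depended on the setting; the cause was not tested. For BF10 minus Control it was 1, and 0 with a pseudocount of 0.1, without rescaling, with median-of-ratios scaling, with the 1 TPM filter and with no filter. For IL10Fc minus Control it was 2, and 1 with the pseudocount of 0.1, median-of-ratios scaling or the 1 TPM filter. aCSF1R minus Control went from 82 to 126 with median-of-ratios scaling, BF10 minus IL10Fc from 1 to 0 with the 1 TPM filter, and the interleukin-10 comparison from 8 to 13 with the pseudocount of 0.1 and to 22 with the 1 TPM filter. The library set term gave 5 for IL10Fc minus Control, 283 for aCSF1R minus Control, 2 for BF10 minus IL10Fc, 393 for BF10 minus aCSF1R (103 without the term), 290 for IL10Fc minus aCSF1R (73), 161 for the interleukin-10 comparison and 145 for the non-additive one (34). Leaving out 1 tumor gave 0 to 1 calls for BF10 minus Control, 1 to 3 for IL10Fc minus Control, 41 (without Control replicate 7) to 87 for aCSF1R minus Control, 0 to 2 for BF10 minus IL10Fc, 41 (without BF10 replicate 3) to 97 for BF10 minus aCSF1R, 23 (without IL10Fc replicate 4) to 77 for IL10Fc minus aCSF1R, 2 (without Control replicate 7) to 14 for the interleukin-10 comparison and 7 (without Control replicate 4) to 39 for the non-additive one.

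Replicate numbers in the labels are shared by some groups, and same-numbered tumors correlated at -0.66 to 0.41 in their deviations from the group means. Pairs within a library set gave 0.41 and 0.37, and pairs across the sets gave -0.66 to -0.28. The correlations follow the library sets, so they cannot decide whether the numbers pair the tumors. The replicate block leaves 2 residual degrees of freedom. IL10Fc replicate 2, BF10 replicate 3, Control replicate 5 and aCSF1R replicate 8 share their number with no other tumor. The block fits these tumors exactly, so they do not enter its differences, and its values are also values without BF10 replicate 3. With the block the mean of the 4 genes was 0.42 for BF10 minus Control, -0.29 for BF10 minus IL10Fc and -0.0738 for the non-additive difference. The block gave 2 calls for BF10 minus Control, aCSF1R minus Control, BF10 minus IL10Fc and IL10Fc minus aCSF1R, and 0 for the other 4 comparisons. The 22 calls of list genes lost significance under the block, 7 did so with median-of-ratios scaling, 2 with no filter and 1 without rescaling, and none of these 22 reversed its sign.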
